A study of Mus musculus with 9 samples.

Results

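The ubiquitin-specific proteases (USPs) are the largest family of deubiquitinases in mammals. These cysteine proteases cut ubiquitin off other proteins and so oppose the ubiquitin ligases, which tag proteins for the proteasome or change where they go and what they bind. In skeletal muscle the balance matters because glucocorticoid-driven wasting is known for its muscle ubiquitin ligases, atrogin-1 (Fbxo32) and MuRF1 (Trim63). The members described here were all genes whose symbol is Usp followed by a number, other than Usp9y, and 50 of the 18193 genes on the array met this rule. Each gene was read from the probe set with the highest mean over all arrays, out of 127 USP probe sets that carry 1 gene symbol, and 38 of the 50 genes had more than 1 probe set. Not all of the symbols name active deubiquitinases. Usp39, Usp50, Usp53 and Usp54 have long been classed as lacking peptidase activity. Usp6nl is a GTPase-activating protein for Rab proteins, and Usp46os2 is a transcript from the strand opposite Usp46.

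RNA came from the tibialis anterior muscle of male C57BL/6J mice, with 3 mice and 3 arrays in each of 3 groups. The mice were 15 weeks old when the diets began, and all groups were fed the same base diet. Control mice were injected with saline, DEX mice with 5 mg/kg of the synthetic glucocorticoid dexamethasone (DEX) intraperitoneally every day for 7 d, and the DEX + TE group received the same injections on a diet with 2% turmeric extract (TE). By the study's methods the diet began 5 d before the injections, whereas the sample labels place turmeric after dexamethasone. The mice on the arrays were picked because their body and muscle weights lay near the average, so the spread between arrays may be narrower than among all mice. Values are array intensities on a linear scale, differences are log2 fold changes with the standard error (SE) of a limma fit over all 9 arrays, and a gene was called changed at a Benjamini-Hochberg adjusted p under 0.05 with a log2 fold change of at least 0.6 in size. Adjusted p-values are over all 29269 probe sets tested unless another filter is named.

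The muscle markers (Ckm, Acta1, Myh4, Myh1, Tnnt3, Pvalb and Actn3) were bright on every array. Of 2 red blood cell markers, Hba-a1 was under 50 on every array and Alas2 was at or above 50 on 7 arrays. All 7 muscle markers were lower in value in the DEX group than in the control group, with a median log2 fold change of -0.45. Of them, 6 had an unadjusted p under 0.05, beside 9.15% of all genes lower. For all 7, control replicate 1 was the highest array and DEX replicate 1 the lowest, so they are not separate observations. Whether array scaling had a part in this was not tested. The 4 fibroblast markers were lower in value too, although Pdgfra was near 0 at -0.04. Of them, 1 was called (Col1a1, log2 fold change -1.85), beside 0.6% of all genes. All 4 were higher in value in the DEX + TE group than in the DEX group, 2 at an unadjusted p under 0.05, beside 5.96% of all genes higher. Of 4 endothelial markers, 3 were higher in value in the DEX group, Kdr by 0.47 (unadjusted p = 0.00709), and all 4 were lower in value in the DEX + TE group than in the DEX group, Pecam1 at an unadjusted p of 0.00593. Adipoq was the 1 adipocyte marker with a probe set of its own. It lay between 268 and 441 in control mice, 721 and 905 in DEX mice, and 1165 and 2050 in DEX + TE mice. It was called higher in DEX + TE than in control mice (log2 fold change 2.19, limma adjusted p = 0.0261). Adipoq was not called between DEX and control (limma adjusted p = 0.103) or between DEX + TE and DEX (limma adjusted p = 0.473). The summed intensity of 5 leukocyte markers lay between 1202 and 1568 in control mice, 1143 and 1657 in DEX mice, and 1599 and 1885 in DEX + TE mice. In whole muscle, fewer cells of a type and less RNA per cell cannot be told apart, and the part of cell makeup in the values below was not tested. Fkbp5, a glucocorticoid receptor target, was called higher in the DEX group, with a log2 fold change of 2.26 (adjusted p = 0.0134). The other targets of the receptor picked for reference (Tsc22d3, Per1, Klf15 and Zbtb16) were not called. These are only a few of its known targets. Tsc22d3 was lower in value, at -0.80 (adjusted p = 0.0685), and Klf15 and Zbtb16 gave -0.13 and 0.08. Fbxo32 and Trim63 had log2 fold changes of 0.67 (adjusted p = 0.193) and 0.42 (adjusted p = 0.183) and were not called.

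Most USP genes gave a signal in this muscle. Of the 50 genes, 46 had a group mean at or above an intensity of 50 and were tested, and 39 were at or above 50 on all 9 arrays. The 4 genes not tested were Usp17la, Usp26, Usp29 and Usp50. Usp26 and Usp50 stayed under 50 on every array, Usp29 reached 50 on 2 arrays and Usp17la on 3. Usp54 was tested and reached 50 on 8 arrays.

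No USP gene was called between the DEX and control groups. The 46 genes split into 24 lower and 22 higher in value, their log2 fold changes ran from -0.79 to 0.67, and their median was -0.02 beside -0.03 over all 13662 genes tested (0.08 and 0.07 with each array centred on its median). Of all genes tested, 0.6% were called. At an unadjusted p under 0.05, 3 USP genes were higher (Usp3, Usp16 and Usp46) and 3 were lower (Usp9x, Usp2 and Usp22). Over all genes the shares were 6.16% higher and 9.15% lower, so the USP counts lay near the background. Values of the groups did not overlap for 5 USP genes higher and 5 lower, beside 9.66% and 13.6% of all genes. The 95% interval of the log2 fold change lay wholly within 0.6 of 0 for 23 of the 46 genes, so a change of that size was outside the interval for these and inside it for the others.

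**Figure D1:**
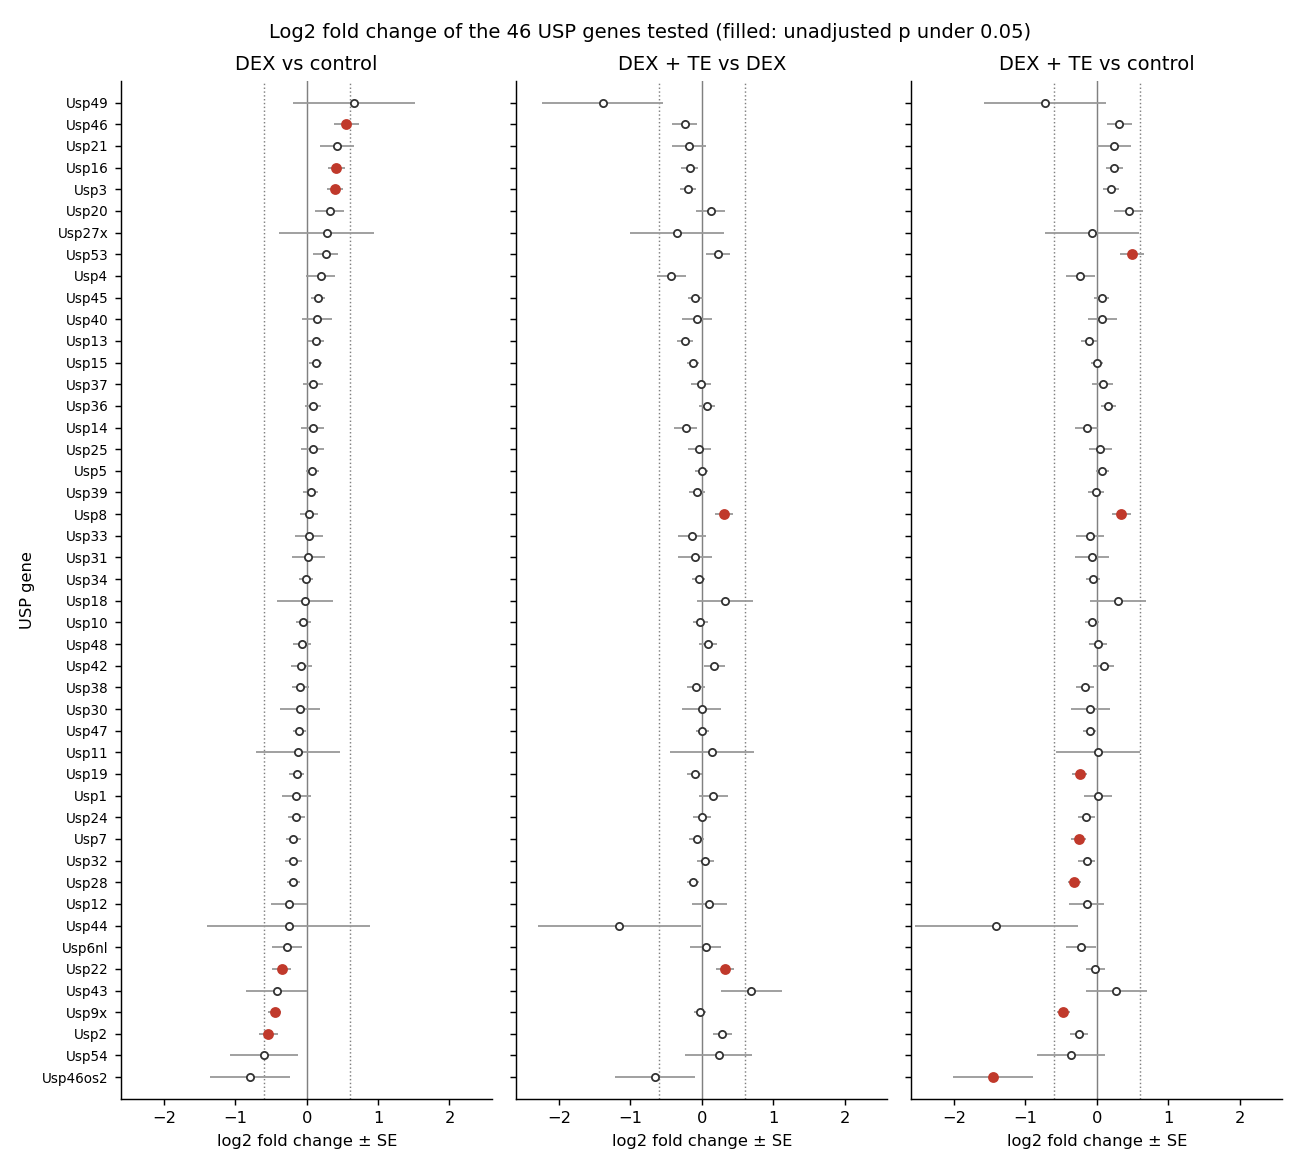
Log2 fold change (x axis) with its SE (bars) for each of the 46 USP genes tested (y axis, in the order of DEX vs control) in 3 comparisons of 3 mice against 3. Filled points have an unadjusted p under 0.05 and dotted lines mark 0.6 either way; 6, 2 and 7 genes are filled from left to right, and none was called. The USP genes with the widest bars include Usp44, Usp49 and Usp11, each under 50 on some arrays.

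The plot of all members shows a narrow band around 0 for the brighter genes. The members farthest from 0 between DEX and control were Usp46os2 (-0.79 ± 0.56), Usp49 (0.67 ± 0.85) and Usp54 (-0.60 ± 0.47), each under 50 on at least 1 array and with a wide SE. The members with the lowest p are described by role, after the sequences at the starts of 4 of them.

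The stretches around the transcription start were read for 38 of the 50 genes that have one in the RefSeq table (build GRCm38.p6), as 39 windows from 250 bases before to 50 bases after the start. A GC box (GGGCGG on either strand) was in 26 of the 39 USP windows, 66.7%, beside 35.7% of all 32851 windows. An E-box, CACGTG, the sequence that clock proteins bind, was in 5 USP windows (Usp4, Usp6nl, Usp16, Usp31 and Usp32) beside 7.15% of all windows. The glucocorticoid receptor half-site AGAACA was in 3 (Usp13, Usp19 and Usp45) beside 19.0% of all windows, and the FOXO site GTAAACA was in none beside 3.65%. None of these motifs contains another, and a match is a description of letters and not a bound site. Windows are given below for the members with the lowest p between DEX and control that have one, since they are the stretches a reader would search for such motifs, in the gene's own direction 5′ to 3′, with capitals for a GC box or, in Usp16, the E-box. In Usp46, a pair of GC boxes on the reverse strand overlap within a single run of capitals. Usp46 lies on the minus strand at chr5:74068362-74068661, Usp2 on the plus strand at chr9:44084670-44084969, Usp3 on the minus strand at chr9:66593066-66593365 and Usp16 on the plus strand at chr16:87454735-87455034.
Usp2: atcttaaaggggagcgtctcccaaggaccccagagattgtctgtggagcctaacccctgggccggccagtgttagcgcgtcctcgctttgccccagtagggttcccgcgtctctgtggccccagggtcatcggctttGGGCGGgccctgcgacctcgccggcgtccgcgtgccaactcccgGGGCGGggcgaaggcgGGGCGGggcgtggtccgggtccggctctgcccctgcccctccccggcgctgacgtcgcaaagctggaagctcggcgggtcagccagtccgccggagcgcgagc
Usp16: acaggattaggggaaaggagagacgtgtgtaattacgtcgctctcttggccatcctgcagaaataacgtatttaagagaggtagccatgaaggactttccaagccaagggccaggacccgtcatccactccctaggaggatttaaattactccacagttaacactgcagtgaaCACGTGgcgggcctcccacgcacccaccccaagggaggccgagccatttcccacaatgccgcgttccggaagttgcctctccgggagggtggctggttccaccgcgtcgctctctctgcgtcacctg
Usp3: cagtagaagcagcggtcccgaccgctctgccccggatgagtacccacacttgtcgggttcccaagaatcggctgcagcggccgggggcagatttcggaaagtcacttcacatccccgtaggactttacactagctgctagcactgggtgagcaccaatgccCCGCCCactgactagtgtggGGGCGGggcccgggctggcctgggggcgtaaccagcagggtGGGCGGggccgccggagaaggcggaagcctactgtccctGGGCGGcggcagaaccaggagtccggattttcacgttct
Usp46: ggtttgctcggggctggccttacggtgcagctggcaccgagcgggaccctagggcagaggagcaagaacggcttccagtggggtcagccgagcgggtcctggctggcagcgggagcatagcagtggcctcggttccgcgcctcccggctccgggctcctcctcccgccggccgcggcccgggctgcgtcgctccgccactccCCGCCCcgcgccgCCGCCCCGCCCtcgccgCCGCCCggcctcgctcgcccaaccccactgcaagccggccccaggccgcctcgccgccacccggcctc
Usp2 and Usp3 hold GC boxes and no AGAACA or CACGTG, Usp16 holds the E-box and no GC box, and Usp46 holds GC boxes on the reverse strand. GC boxes stood in the window of the member lower in value in the DEX group (Usp2) and in those of members higher in value (Usp3 and Usp46).

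Usp2 is a deubiquitinase known as an output of the circadian clock and for being regulated by nutrition and glucocorticoids. Its intensity was 10887, 9115 and 10199 in the control mice and 6697, 7241 and 6814 in the DEX mice. All 3 DEX values lay under all 3 control values, a log2 fold change of -0.54 ± 0.13 (SE, n = 3 and 3), or 1.45-fold lower (limma adjusted p = 0.138). The DEX + TE mice had 7605, 9909 and 8020, all above the DEX mice and 1 of them within the control range, and the log2 fold change from DEX to DEX + TE was 0.29 ± 0.13 (limma adjusted p = 0.659). The other Usp2 probe set gave -0.44 and 0.20 for the same differences, so both sets had the same signs.

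Other genes of the clock are given beside Usp2. Of 13 core clock genes tested, none was called in the DEX group, beside 0.6% of all genes. At an unadjusted p under 0.05, 7 were lower (Per1, Per2, Per3, Dbp, Hlf, Tef and Nr1d2) and 3 higher (Arntl, Clock and Cry1). Over all genes the shares were 9.15% lower and 6.16% higher. Per1, a repressor within the clock that is also a glucocorticoid receptor target, had intensities of 1277, 988 and 1497 in the control mice and 570, 529 and 358 in the DEX mice, a log2 fold change of -1.38 (limma adjusted p = 0.0609). Whether clock time or clock gene expression had a part in the Usp2 values was not tested.

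Usp9x, an X-linked deubiquitinase known for acting on SMAD4 and on proteins of cell adhesion and survival, had the lowest adjusted p of the family. Its chosen probe set, 1428194_at, read 4418, 4515 and 4587 in the control mice and 3445, 3189 and 3292 in the DEX mice. The groups did not overlap and differed by -0.45 ± 0.09 (SE, n = 3 and 3), or 1.36-fold (limma adjusted p = 0.0952). The DEX + TE mice read 3233, 3456 and 3076, which overlapped the DEX values, with a log2 fold change of -0.02 from DEX and of -0.47 from control (limma adjusted p = 0.0984).

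The other 6 Usp9x probe sets did not show a difference of this size in this direction. Their log2 fold changes between DEX and control ran from -0.08 to 0.34. Probe set 1428193_at read 3529, 3400 and 3446 in the control mice and 3419, 3271 and 3723 in the DEX mice, with the groups overlapping. Probe set 1450039_at was higher in value in the DEX + TE group than in the control group, with a log2 fold change of 0.52 (unadjusted p = 0.0261, limma adjusted p = 0.295). For DEX + TE against control, Usp9x was the only member with probe sets of opposite sign at an unadjusted p under 0.05.

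**Figure D2:**
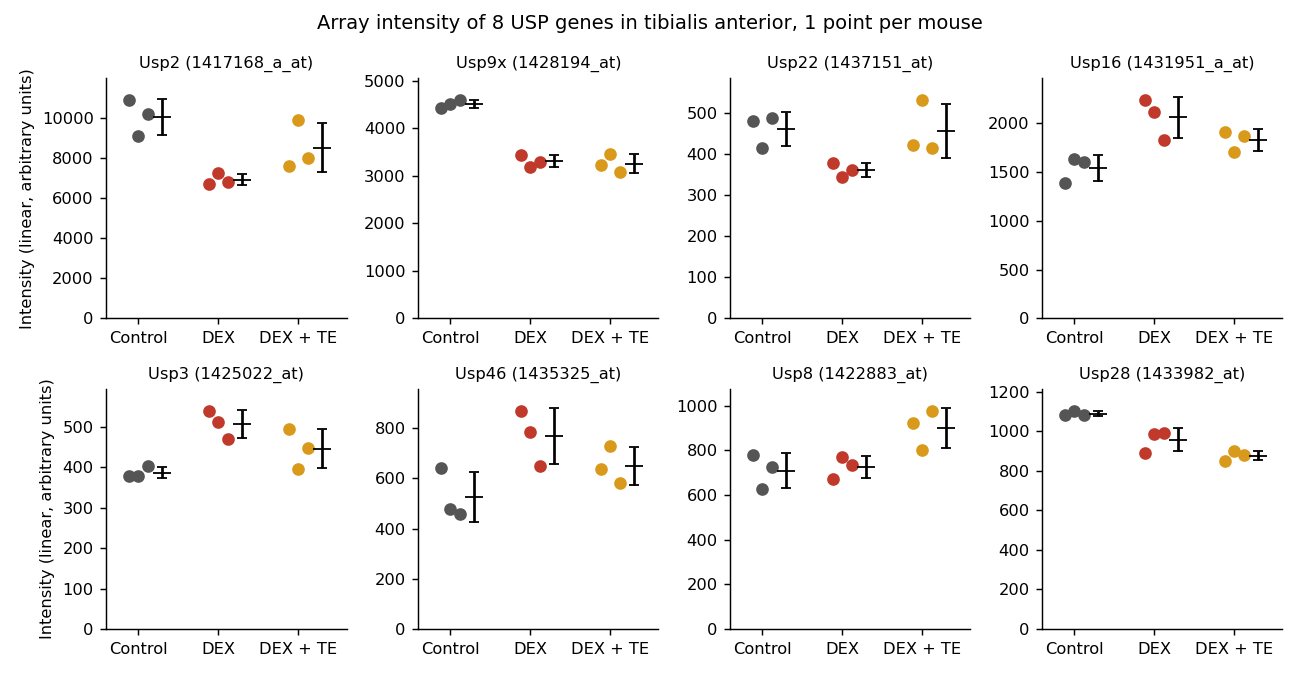
Array intensity (y axis, linear, starting at 0) of 8 USP genes in the 3 groups (x axis), with 1 point per mouse and the group mean ± SD (n = 3) beside the points. Usp2, Usp9x and Usp22 have every DEX point under every control point, Usp16, Usp3 and Usp46 have every DEX point above, and Usp8 has every DEX + TE point above all other points.

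The histone and chromatin members were 10 of the 46 genes tested and included 3 of the 6 with an unadjusted p under 0.05. Of these, 2 were higher and 1 lower, beside 6.16% and 9.15% of all genes. Usp16, which removes ubiquitin from histone H2A, read 1390, 1640 and 1607 in the control mice and 2238, 2118 and 1833 in the DEX mice. The DEX values were all higher, by 0.42 ± 0.12 on the log2 scale or 1.33-fold (limma adjusted p = 0.188), and the other Usp16 probe set gave 0.09. Usp3, which acts on histones H2A and H2B, read 378, 378 and 402 in the control mice and 540, 513 and 471 in the DEX mice. The DEX values were again all higher, by 0.39 ± 0.11 or 1.31-fold (limma adjusted p = 0.188). Of the other 4 Usp3 probe sets, 3 were higher in value, by 0.37 to 0.60, and 1 was lower at -0.16.

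Usp22, the deubiquitinase of the SAGA coactivator complex, went the other way in value. It read 479, 414 and 488 in the control mice, 378, 343 and 361 in the DEX mice, and 421, 530 and 414 in the DEX + TE mice. The DEX values lay under both other groups, with log2 fold changes of -0.35 ± 0.13 from control (limma adjusted p = 0.291) and 0.33 ± 0.13 from DEX to DEX + TE (limma adjusted p = 0.620). Its second, dimmer probe set did not follow, at 0.04 and -1.14. Over the 10 histone and chromatin members tested the median log2 fold change between DEX and control was 0.18, beside the -0.03 over all genes, and none was called.

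Usp46, which works bound to the WD-repeat protein WDR48 and is known from glutamate receptor turnover, read 640, 480 and 458 in the control mice and 869, 786 and 651 in the DEX mice. The DEX values were all higher, although the lowest DEX value exceeded the highest control value by a small margin, and the log2 fold change was 0.55 ± 0.18 or 1.47-fold (limma adjusted p = 0.223). The second Usp46 probe set gave 0.45. The DEX + TE mice read 638, 730 and 580, between the means of the other groups, with a log2 fold change of -0.24 from DEX. Usp12 and Usp1, the other WDR48-bound members, gave -0.25 and -0.14 between DEX and control, and Wdr48 itself gave 0.11.

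Usp19, Usp14, Usp5, Usp13, Usp25 and Usp28 are tied to protein breakdown, have a muscle form or are close to such a member. Their log2 fold changes between DEX and control lay between -0.19 and 0.13, and Usp2, described above, lay outside this range at -0.54. Usp19, which muscle expresses in a form held at the endoplasmic reticulum and which is known from studies of atrophy, read 2474, 2218 and 2438 in the control mice and 2063, 2123 and 2275 in the DEX mice. These groups overlapped, with a log2 fold change of -0.14 and a 95% interval from -0.38 to 0.10. Usp14, a deubiquitinase that sits on the proteasome and trims ubiquitin chains from substrates, gave 0.08 (95% interval -0.29 to 0.46), a value near 0 that was -0.04 without DEX replicate 1. Usp5, which recycles free ubiquitin chains, gave 0.08 (-0.13 to 0.29), and its relative Usp13 gave 0.13 (-0.14 to 0.39). Usp25, whose long form is found in muscle, gave 0.08 (-0.29 to 0.45), and Usp28, its closest relative, gave -0.19 (-0.40 to 0.02). All of these intervals stayed within 0.6 of 0.

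Usp14 also had a dim probe set, 1439201_at, that differed from the other 3. It read 135, 146 and 198 in the control mice, 62.7, 22.9 and 84.3 in the DEX mice, and 139, 147 and 158 in the DEX + TE mice. The DEX values were the lowest, with log2 fold changes of -1.67 from control (limma adjusted p = 0.162) and 1.58 from DEX to DEX + TE (limma adjusted p = 0.493), while the other 3 Usp14 probe sets lay between -0.03 and 0.24 for DEX against control. A fit with a mean-variance trend called this set (limma adjusted p = 0.04995), and no other USP probe set was called in that fit.

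**Figure D3:**
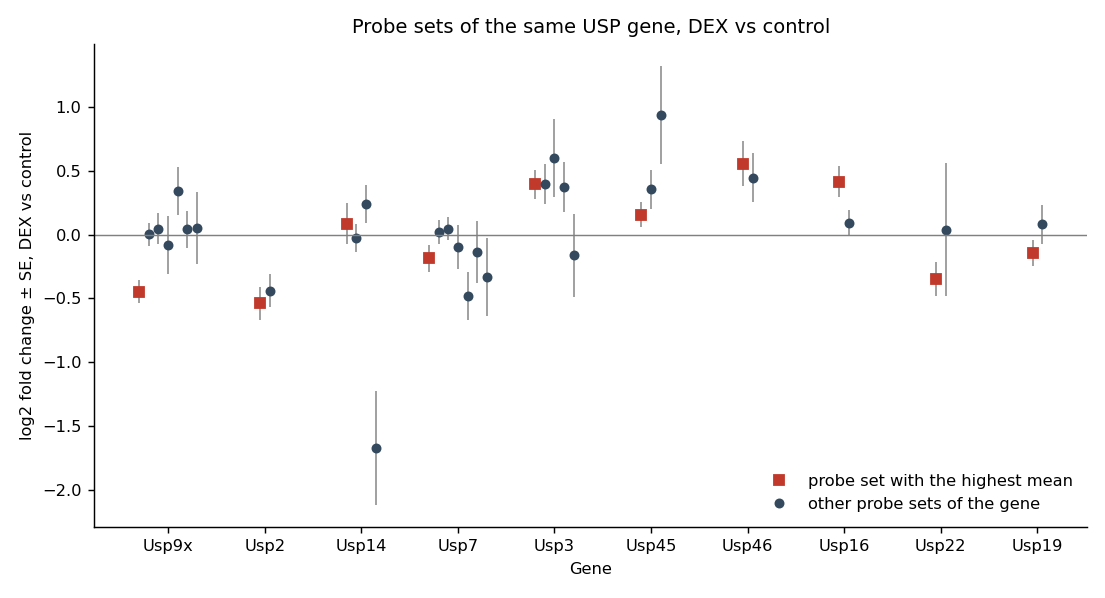
Log2 fold change between DEX and control with its SE (y axis) for each tested probe set of 10 USP genes (x axis), squares being the probe set with the highest mean and circles the others. The Usp2 and Usp46 sets lie on the same side of 0, the Usp9x square at -0.45 stands apart from its 6 circles, and 1 Usp14 circle lies at -1.67.

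Agreement between probe sets of a gene was limited in general. Of the 30 genes with at least 2 tested probe sets, all sets had the same sign in 10 genes for DEX against control, in 8 for DEX + TE against DEX and in 15 for DEX + TE against control. The plot of probe sets shows Usp2 and Usp46 among the genes whose sets agree in sign, and Usp9x, Usp14 and Usp7 among those whose sets do not. Counting every USP probe set, 6 were higher and 10 lower in the DEX group at an unadjusted p under 0.05 among 108 tested, beside 6.10% higher and 8.33% lower over all 29269 probe sets. None of the 108 was called, beside 0.502% of all probe sets.

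No USP gene was called between the DEX + TE and DEX groups either, where 0.00732% of all genes, a single gene, were called. The median log2 fold change was -0.03 for the USP genes and 0.04 for all genes. Only Usp22 and Usp8 had an unadjusted p under 0.05, both higher, beside 5.96% of all genes higher and 1.49% lower. Groups did not overlap for 3 USP genes higher (Usp2, Usp8 and Usp22) and 2 lower (Usp4 and Usp15), beside 9.73% and 5.27% of all genes. These splits depend on scaling. With each array centred on its median, which moved the median of all genes to -0.22, 11 USP genes were lower and none higher at an unadjusted p under 0.05, beside 15.6% of all genes lower and 1.90% higher.

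Usp8, which deubiquitinates receptors and sorting proteins at endosomes, read 778, 625 and 724 in the control mice, 671, 771 and 733 in the DEX mice, and 920, 803 and 976 in the DEX + TE mice. The control and DEX values overlapped and the DEX + TE values were above both, with log2 fold changes of 0.31 ± 0.13 from DEX (limma adjusted p = 0.634) and 0.35 ± 0.13 from control (limma adjusted p = 0.308). Its second probe set gave -0.63 and -0.44, with an SE of 0.56. Usp4, known for acting on the TGF-beta receptor, read 1392, 1709 and 1637 in the DEX mice and 1388, 1102 and 1053 in the DEX + TE mice. The DEX + TE values lay under the DEX values, 1 of them by a small margin, with a log2 fold change of -0.42 ± 0.20 (limma adjusted p = 0.677).

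The comparisons of DEX with control and of DEX + TE with DEX share the DEX arrays, so their values are only set side by side. Of the 6 members with an unadjusted p under 0.05 for DEX against control, the value went from -0.54 to 0.29 for Usp2, from -0.35 to 0.33 for Usp22, from 0.55 to -0.24 for Usp46, from 0.42 to -0.17 for Usp16 and from 0.39 to -0.19 for Usp3. For Usp9x it went from -0.45 to -0.02. A DEX array that is high or low by error gives opposite signs in the 2 comparisons, so the opposite signs here do not show a reversal by TE supplementation.

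Against control, the DEX + TE group had no USP gene called, beside 0.454% of all genes. The median log2 fold change was -0.06 for the USP genes and 0.02 for all genes. At an unadjusted p under 0.05, Usp53 and Usp8 were higher and Usp9x, Usp28, Usp7, Usp19 and Usp46os2 were lower, beside 7.64% and 6.78% of all genes. Groups did not overlap for 4 USP genes higher and 7 lower, beside 12.4% and 12.3% of all genes.

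Usp28, a nuclear deubiquitinase known for stabilising MYC, read 1082, 1103 and 1085 in the control mice, 892, 988 and 992 in the DEX mice and 851, 900 and 881 in the DEX + TE mice. Both DEX-injected groups lay under the control group and overlapped each other, with a log2 fold change of -0.31 ± 0.09 between DEX + TE and control (limma adjusted p = 0.205). Usp53, a member long classed as lacking peptidase activity and found at cell junctions, had control values of 613, 764 and 804 and DEX + TE values of 938, 884 and 1272, a log2 fold change of 0.50 ± 0.17 (limma adjusted p = 0.281). Its other tested probe set, which was dimmer, did not follow. That set read 79.3, 119 and 190 in the control mice and 139, 100 and 119 in the DEX + TE mice. Usp7, which acts on p53 and MDM2, differed by -0.26 and Usp19 by -0.24, with limma adjusted p-values of 0.342 and 0.359. Usp46os2 differed by -1.45 with an SE of 0.56, and its DEX + TE values of 23.2, 17.8 and 89.7 overlapped the control range of 75.4 to 116.

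Usp18, which removes the ubiquitin-like protein ISG15 and marks an interferon response, read 139, 148 and 130 in the control mice, 242, 74.1 and 141 in the DEX mice and 160, 214 and 143 in the DEX + TE mice. The DEX values spread on both sides of the other groups, and the log2 fold change from control was -0.03 with a wide 95% interval from -0.94 to 0.89. It was 0.41 without DEX replicate 2 and -0.44 without DEX replicate 1. The 3 tested genes that attach ISG15 (Uba7, Ube2l6 and Herc6) were not called between DEX and control, beside 0.6% of all genes. Their log2 fold changes were 0.04, -0.51 (limma unadjusted p = 0.0400) and 0.22. Ube2l6 reached 50 on only 4 arrays and Herc6 on 5, so these values lie near the floor.

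The other deubiquitinase families were read the same way. From the UCH, OTU, Josephin, JAMM, MINDY and ZUFSP families and the USP-class genes Cyld, Pan2 and Uspl1, 38 genes were tested. None was called in any comparison. Of all genes, 0.6% were called for DEX against control, 0.00732% for DEX + TE against DEX and 0.454% for DEX + TE against control. Between DEX and control 4 were higher (Otub2, Otud1, Eif3f and Mindy1) and 1 lower (Mindy2) at an unadjusted p under 0.05. Over all genes the shares were 6.16% higher and 9.15% lower. The median of the 38 was 0.13, beside -0.02 for the USP genes and -0.03 over all genes, and a difference between families was not tested. Otub2, an OTU-family deubiquitinase, read 417, 428 and 549 in the control mice, 1206, 927 and 895 in the DEX mice and 949, 700 and 767 in the DEX + TE mice. The DEX and control values did not overlap, with a log2 fold change of 1.12 (limma adjusted p = 0.0585). Otud1 read 1033, 880 and 945 in the control mice and 1944, 5621 and 1424 in the DEX mice, 1 of which was far above the rest, with a log2 fold change of 1.39 (limma adjusted p = 0.238). No USP gene reached a log2 fold change of either size in that direction, since the highest was 0.67.

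**Figure D4:**
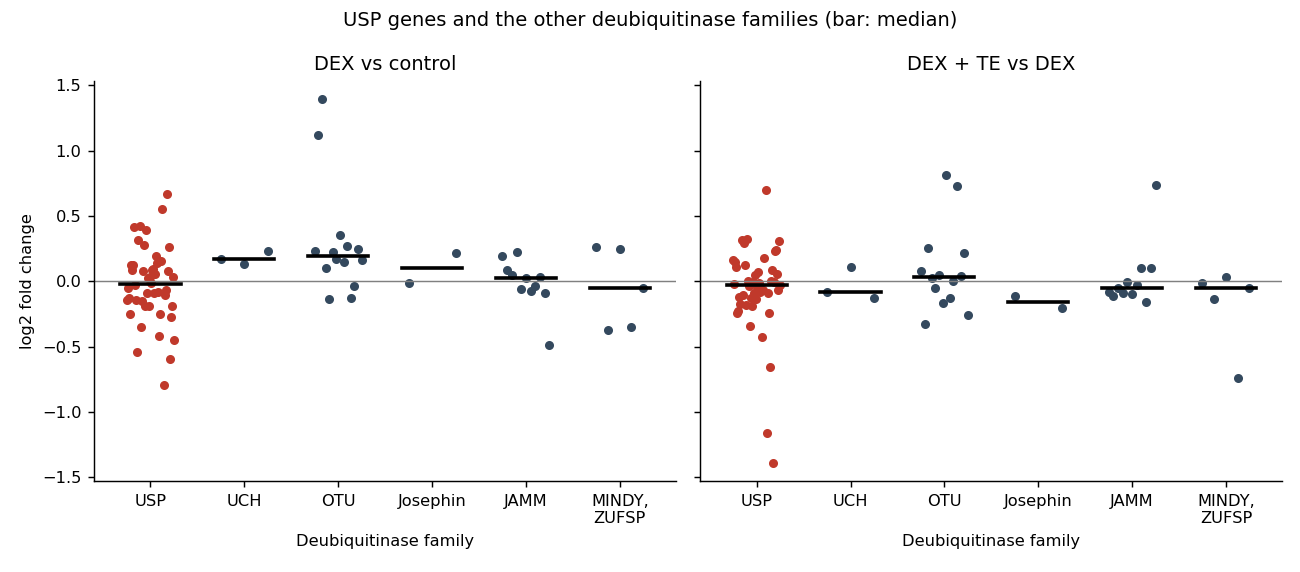
Log2 fold change (y axis) of each tested gene of the USP rule and of 5 other deubiquitinase families (x axis), with a bar at each median, for DEX vs control (left) and DEX + TE vs DEX (right). The pair of OTU points at 1.12 and 1.39 on the left are Otub2 and Otud1, and the USP median lies at -0.02 on the left and -0.03 on the right.

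Of 14 genes tested from a list of USP partner proteins none was called. Among them, only Bag6 had an unadjusted p under 0.05 between DEX and control, with a log2 fold change of 0.26. Of all genes, 6.16% were higher and 9.15% lower at that p, and 0.6% were called. Hsp90aa1, a chaperone, and Atxn7l3, which activates Usp22 in SAGA, were higher in value in the DEX + TE group than in the DEX group, by 0.61 and 0.26, with limma adjusted p-values of 0.592 and 0.570.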

How the data were processed

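RNA (250 ng per mouse) was converted with a GeneChip 3′IVT Express Kit and hybridised to 9 Affymetrix mouse arrays. The deposited table holds 45101 probe sets as linear intensity, which the authors summarised per probe set. The study's methods name Robust Multi-array Average, whose usual output is on the log2 scale, and whether these linear values came from it was not tested. Every array has the same trimmed mean (499.8 after removing the top and bottom 2%). That scaling sets levels relative to the whole array and can move all genes of an array together. Array medians were 71.3 to 95.0. Spot-level background was not used here, and an intensity of 50 served as the filter, after the study.

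Control probe sets (64) were left out, and 34945 probe sets had 1 gene symbol in the platform annotation. Of the 50 members, 49 matched RefSeq by gene identifier. The log2 intensity was fitted with limma 3.58.1 (R 4.3.3, group means, eBayes) over the 29269 probe sets with a group mean log2 intensity at or above that of 50. A gene was called at a Benjamini-Hochberg adjusted p under 0.05 and a log2 fold change of at least 0.6. Limma was used in place of the study's Rank Product, which was an alternative with 100 permutations. Exact permutation of 3 against 3 arrays cannot go below 0.1 and was not used for calls. P-values measure the spread between these mice only. The members, gene lists and tests were chosen with earlier results of these data known. The genes named were those with the lowest unadjusted p in each comparison, members with a known link to muscle, glucocorticoids, the proteasome or interferon, and members whose probe sets disagree. The number of arrays limits the precision.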

Additional observations from a re-analysis of the deposited data

How the results depend on the processing

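No USP gene was called in any of the 3 comparisons with array medians centred, quantile normalization, no intensity filter, a group mean of at least 100, a mean-variance trend, only the 6 arrays compared, Rank Product, any probe set of the gene, or 1 array left out at a time (range 0 to 0). The exception was 1 USP gene, Usp14, in DEX against control, with any probe set taken and a mean-variance trend, an alternative added after seeing the data. The intensity filters, the trend and the fit of only the 6 arrays compared leave each log2 fold change as it was. A probe set under 0.6 in size could therefore not be called in those settings. Usp9x had adjusted p-values of 0.0427 and 0.0472 against control with a group mean of at least 100, and Usp9x, Usp2 and Usp16 fell under 0.05 for DEX against control with a mean-variance trend, all with log2 fold changes smaller than 0.6. Centring array medians moved the median log2 fold change of the USP genes to 0.084 (DEX against control), -0.28 (DEX + TE against DEX) and -0.21 (DEX + TE against control), and that of all genes to 0.07, -0.22 and -0.13. This shift is the same for every gene by construction. The 10 members with the lowest p in each comparison kept their sign in every setting they were fitted in, but not their size. For DEX + TE against DEX, the log2 fold change over settings ran from 0.037 to 0.37 for Usp2 and from 0.072 to 0.39 for Usp22. It ran from 0.055 to 0.39 for Usp8 and from -0.68 to -0.35 for Usp4. Some other members with values near 0 or wide errors did not keep their sign. For DEX against control, Usp18 was 0.074 with centred arrays, 0.036 with quantile normalization and -0.44 to 0.41 with 1 array left out, and with 1 array left out Usp14 was -0.038 to 0.18, Usp25 -0.046 to 0.23 and Usp49 -0.19 to 1.27. Usp25 turned without control replicate 1 and Usp49 without control replicate 3. For DEX + TE against DEX, Usp9x was 0.0153 with quantile normalization and -0.069 to 0.0153 with 1 array left out.

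Replicate numbers did not pair the samples: over 9 same-numbered pairs the deviations correlated at -0.02 to 0.05. With a replicate block the USP calls stayed at 0 in each comparison, while probe sets called went from 147 to 41, 4 to 0 and 111 to 30.

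With 3 arrays a group, the median SE of a USP gene was 0.14 on the log2 scale beside 0.19 over all genes, and the 95% interval lay within 0.6 of 0 for 23, 28 and 27 of the 46 genes in DEX against control, DEX + TE against DEX and DEX + TE against control. For the other genes a change of 0.6 was not excluded by the interval.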
